A study of Mus musculus with 18 samples.

Results

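Heart and skeletal muscle of wild type C57BL/6 mice were compared on Affymetrix arrays, using the 3 arrays titled for wild type heart and the 3 titled for wild type skeletal muscle. These are 6 of the 18 arrays of a study that crossed 2 genotypes with 3 tissues. The other 12 arrays are from hippocampus of wild type mice and from the same tissues of littermates carrying TN-XXL, a fluorescent calcium indicator built around a domain of troponin C. The arrays of these littermates are titled +/+ and are called transgenic here. The 6 arrays used here carry no transgene. The labels give no age, do not name the muscle taken or the part of the heart, and do not say whether a heart and a muscle array share an animal. Nothing states that the 3 samples of a group came from separate animals, so the spread behind each p-value may be technical.

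Heart and skeletal muscle are both striated: thick filaments of myosin slide along thin filaments of actin when calcium binds troponin. The genome holds separate copies of many of the parts, one used mainly by heart muscle cells and another mainly by skeletal fibres, and the tissues also trigger calcium release differently. A skeletal fibre contracts when a motor nerve excites it, and its surface channel is coupled directly to the calcium release channel. Heart muscle cells are joined end to end at intercalated discs, pass the beat from cell to cell, release calcium in response to calcium entry, and oxidise mainly fatty acids.

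All levels are log2 values from RMA, a method that removes background, brings the arrays to a common scale and summarises the probes of each set, and every difference is heart minus skeletal muscle on that scale, with its SE and n = 3 arrays in each tissue. The values were used as deposited, with no further scaling. Array medians were 2.61 to 2.63 in heart and 2.44 to 2.45 in muscle, and upper quartiles 5.07 to 5.11 and 4.76 to 4.78. Arrays of the same tissue correlated at 0.985 to 0.987 across probe sets and arrays of different tissues at 0.921 to 0.926. Where the lower tissue lay under its own median, as for most of the greatest differences below, its level is among the dim probe sets and the size of the difference is not exact.

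Of 35382 probe sets, 9049 (25.6%) were called higher in heart and 4648 (13.1%) higher in skeletal muscle at an adjusted p under 0.05. At least a 2-fold difference was called for 2839 (8.02%) higher in heart and 1199 (3.39%) higher in muscle. The split depended on the scaling. As deposited, 66.1% of the calls were higher in heart, and this share became 44.0% when each array was centred on its median, 50.7% after quantile normalization and 27.2% when each was centred on its 75th percentile. Those settings moved the median difference over all probe sets from 0.074 to -0.098, -0.003 and -0.251 in that order, so calls of small differences depend on the scaling. Centred on the 75th percentile, 18 of the genes given below as not called were called higher in muscle (Bmp10, Cry2, Dmd, Dysf, Gapdh, Idh3a, Jph2, Myh11, Myh3, Myom1, Myom2, Ndufs4, Npr2, Sln, Smyd1, Tmem65, Tpm1 and Ucp1), and 8 given at a called level were no longer called (Actn2, Hoxb4, Mef2a, Mir499, Snap25, Uty, Vcl and Xist). With 1 probe set per gene, 33.5% of 18781 genes were called higher in heart and 15.5% higher in muscle, with a median difference of 0.10. These shares are the background against which each gene list is read on the deposited scale. Centred on the 75th percentile, 5054 of all 35382 probe sets were called higher in heart and 13557 higher in muscle. After quantile normalization the counts were 6840 and 6658. List counts at those scalings are read against these.

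The labels fitted the defining genes of each tissue on every array. The heart arrays held the cardiac genes Tnni3, Mybpc3, Ryr2 and Nppa at 9.47 or above while the muscle arrays had them at 2.42 or below. The muscle arrays held Myh4, Ryr1, Actn3 and Pvalb at 10.97 or above, and the heart arrays had these at 2.38 or below. The Y-linked genes Uty, Kdm5d and Eif2s3y stood between 4.37 and 5.97 on all 6 arrays, and Xist, the X-inactivation RNA of females, between 1.54 and 2.55, under or close to the array medians. The transgenic littermates gave the same comparison on arrays whose levels do not enter the wild type differences. Their spread does enter the wild type SEs and p-values, because the same fit to all groups gave the wild type and transgenic contrasts. The calls in the wild type and transgenic mice are therefore not independent. There 8941 probe sets (25.3%) were called higher in heart and 4847 (13.7%) higher in muscle. Of all 13697 probe sets called in wild type, 12985 had the same sign in transgenic mice and 10232 were called with it. Of the 4038 probe sets called at 2-fold or more in wild type, 3700 were called with the same sign in transgenic mice and 80 had the opposite sign. A difference of the tissue contrast between the genotypes was called for 903 probe sets (2.55%).

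The sequences before the start sites of 4 of the genes with the greatest differences are shown so that the motifs counted below can be seen in place. In all, 84 genes (0.447%) were called at least 16-fold higher in heart and 89 (0.474%) at least 16-fold higher in muscle. The windows hold the 250 bases before the RefSeq start on GRCm38.p6, read along the gene's strand, with matches in capitals. Matches to 5 motifs are reported, searched on both strands: CAGCTG (an E-box bound by MyoD-family factors), CTA and TAG with any 4 bases between (a MEF2 box), AGATAA (bound by GATA factors), TATAAA (the TATA box), and the CArG box by its name, which serum response factor binds.
Mybpc3 (chr2:91117894-91118143, plus strand): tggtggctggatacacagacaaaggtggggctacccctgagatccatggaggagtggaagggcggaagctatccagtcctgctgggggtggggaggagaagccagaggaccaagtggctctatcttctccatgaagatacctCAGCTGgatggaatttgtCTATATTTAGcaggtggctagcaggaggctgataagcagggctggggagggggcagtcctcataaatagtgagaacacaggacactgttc
Pln (chr10:53337436-53337685, plus strand): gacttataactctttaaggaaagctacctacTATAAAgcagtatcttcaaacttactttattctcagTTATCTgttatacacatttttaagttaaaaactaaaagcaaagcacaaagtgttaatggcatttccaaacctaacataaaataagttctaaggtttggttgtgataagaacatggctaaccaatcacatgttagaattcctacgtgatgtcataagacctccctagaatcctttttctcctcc
Mylpf (chr7:127211358-127211607, plus strand): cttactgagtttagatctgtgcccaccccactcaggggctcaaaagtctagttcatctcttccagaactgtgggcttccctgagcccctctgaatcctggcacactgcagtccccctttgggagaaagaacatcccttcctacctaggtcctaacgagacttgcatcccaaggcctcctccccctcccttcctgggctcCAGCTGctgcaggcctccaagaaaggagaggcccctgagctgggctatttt
Myh4 (chr11:67237562-67237811, plus strand): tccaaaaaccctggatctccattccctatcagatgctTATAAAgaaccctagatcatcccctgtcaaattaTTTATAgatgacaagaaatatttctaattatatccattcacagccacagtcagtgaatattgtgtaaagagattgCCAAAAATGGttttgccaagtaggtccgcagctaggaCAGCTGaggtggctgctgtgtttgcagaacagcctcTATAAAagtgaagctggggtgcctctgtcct
Of these, Mybpc3 and Pln are heart genes. The Mybpc3 window has CAGCTG beginning 108 bases before the start and a MEF2 box beginning 90 bases before it. In the Pln window the GATA letters, on the opposite strand, begin 183 bases before the start. Mylpf and Myh4 are muscle genes with CAGCTG beginning 51 and 67 bases before the start, and Myh4 also has a CArG box beginning 104 bases before it.

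Across the promoter table, 12.7% of the 22862 genes with 1 listed start held CAGCTG in this window. Of the genes at least 16-fold higher in muscle, 50 had 1 listed start and 17 of them (34.0%) held it. Of those at least 16-fold higher in heart, 7 of 48 (14.6%) did. AGATAA was in 10.4% of all windows, in 10 of the 48 heart windows (20.8%) and in 1 of the 50 muscle windows (2.0%). Among genes called at least 2-fold higher, it was in 77 of 1240 heart windows (6.21%) and 27 of 490 muscle windows (5.51%). Both shares were under the 8.87% of the 12206 measured genes with 1 listed start. The higher heart share was therefore not seen at 2-fold. The MEF2 box was in 3.25% of all windows, 2 of the 48 heart windows (4.17%) and 2 of the 50 muscle windows (4.0%). The windows of Tnni3, Ryr2, Ryr1 and Tnnc2 held none of the 5. A match is a description of the letters and not evidence that a factor binds there.

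Some microRNA genes lie inside myosin genes, and the mature sequences of these are shown because their seeds are the same or nearly so. The capitals mark bases 2 to 8, the seed that pairs with target messages.
miR-208a-3p: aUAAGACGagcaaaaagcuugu
miR-208b-3p: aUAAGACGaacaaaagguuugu
miR-499-5p: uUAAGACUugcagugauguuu
The hairpin of Mir208a lies within the gene of the main adult cardiac myosin heavy chain, Myh6, and that of Mir499 within Myh7b. The Mir208a probe set stood at 5.65, 5.75 and 6.33 in heart and at 1.57, 1.76 and 1.65 in muscle. The groups were far apart, with a difference of 4.25 ± 0.13 (adjusted p = 1.01e-12). Mir499 was at 2.25, 2.23 and 2.01 in heart and 1.59, 1.67 and 1.66 in muscle, a difference of 0.53 ± 0.14 at levels under the array medians (adjusted p = 0.00657). It was not called when arrays were centred on the median (0.36, adjusted p = 0.0559) or the 75th percentile (0.20, adjusted p = 0.228). Of the 8 muscle microRNA genes measured, Mir133a-2 differed most in the other direction, at 2.02, 2.05 and 2.13 in heart against 4.65, 4.35 and 4.97 in muscle (-2.59 ± 0.14). A probe set at such a locus reads the primary or host transcript and not the mature microRNA. No value is given for Myh6 or Mir208b, which were not analysed here because no probe set carried their symbol alone.

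In most of the gene pairs chosen here, the copies divided between the tissues. Of 37 pairs in which one copy is known for heart or general expression and the other for skeletal or striated muscle, 32 had both members measured. In 27 of these the first member was higher in heart and the second higher in muscle. The pairs were chosen for that known order, so the count describes them and does not test it. In 2 pairs, the cytochrome oxidase subunits Cox6a1 and Cox6a2 and Cox7a2 and Cox7a1, both were higher in heart. The other 3 had a member that was not called (Jph2, Hk2 and Sln), and in none was the order turned round. In the troponin I pair, Tnni3, the cardiac inhibitory subunit, differed by 9.33 ± 0.09 and Tnni2, the fast skeletal one, by -8.34 ± 0.11. The division was one-sided in several pairs, because the heart copy was present in muscle as well. Actn2, an actin crosslinker of all striated muscle, differed by 0.36 ± 0.07 (0.04 and not called when centred on the 75th percentile) while its partner Actn3, found in fast fibres, differed by -9.58 ± 0.21.

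Of 21 measured thick filament genes, 7 were called higher in heart and 11 higher in muscle, with a median difference of -1.04 against 0.10 over all genes. Mybpc3, the cardiac myosin binding protein C, had the greatest difference toward heart of any named gene. It was at 11.45, 11.47 and 11.17 in heart and at 1.73, 1.94 and 1.74 in muscle (9.56 ± 0.12, adjusted p = 4.91e-17). The fast myosin heavy chains stood at the other end. Myh4, the fastest of them, was at 2.22, 1.70 and 1.78 in heart and 11.51, 11.44 and 11.34 in muscle (-9.53 ± 0.12, adjusted p = 4.91e-17). Myh2 and Myh1, the other adult fast chains, differed by -8.61 ± 0.16 and -8.45 ± 0.17. All 3 were under the array median in heart. The fast regulatory light chain Mylpf differed by -8.54 ± 0.11, and the skeletal light chain kinase Mylk2 by -8.29 ± 0.16.

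The slow and ventricular parts were not private to heart. Myl2 and Myl3, the ventricular and slow light chains, were at 10.77 to 10.95 and 11.46 to 11.47 in heart. In muscle they were still at 7.41 to 7.63 and 8.41 to 8.51, for differences of 3.32 ± 0.16 and 3.01 ± 0.21. Myh7, the slow and beta-cardiac heavy chain, was lower in heart, at 7.06, 7.36 and 7.20 against 9.24, 9.02 and 9.25 in muscle (-1.96 ± 0.18, adjusted p = 3.40e-07). No heart array reached the lowest muscle array. Myh7b was higher in heart (3.55 ± 0.18), as was the cardiac light chain kinase Mylk3 (6.44 ± 0.14). The developmental chain Myh3 stood at 2.26 or below on all 6 arrays. It was not called as deposited (-0.42 ± 0.17, adjusted p = 0.0605) but was called higher in muscle under 5 of the 18 alternatives, including the 3 other scalings and the 6 wild type arrays alone (adjusted p = 0.02). Myh8, the perinatal chain, reached 2.74 to 3.12 in muscle.

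**Figure D1:**
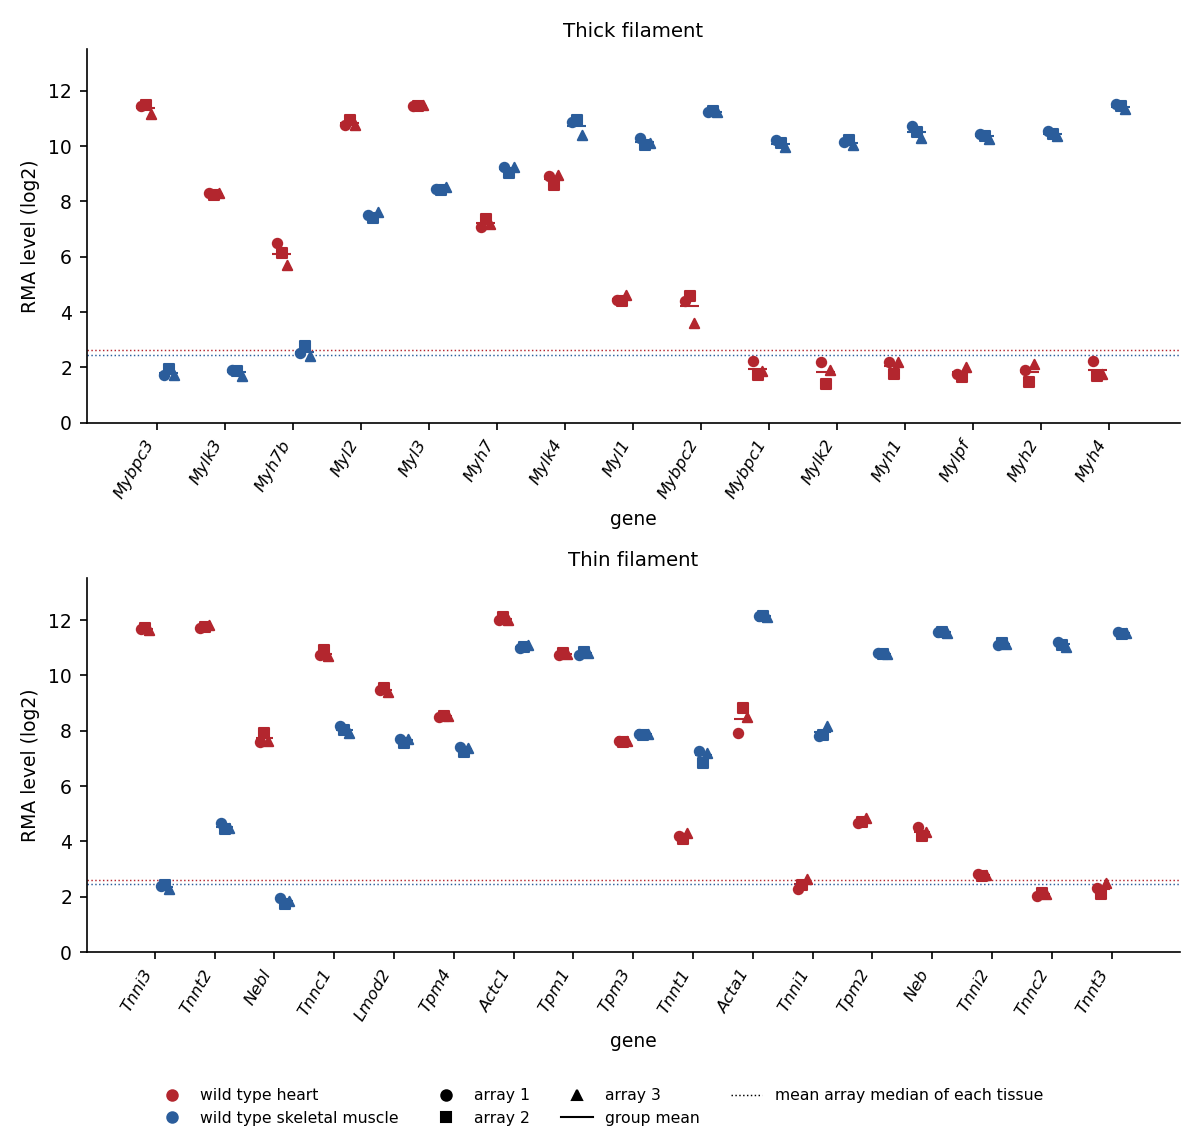
RMA level (log2) of thick filament genes (top) and thin filament genes (bottom) on each of the 3 wild type heart (red) and 3 skeletal muscle arrays (blue); bars are group means and dotted lines the mean array median of each tissue. The arrays of each tissue stay together for nearly all genes, and Myh7 lies higher in muscle, at 9.02 to 9.25 against 7.06 to 7.36 in heart.

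Of 22 thin filament genes, 8 were called higher in heart and 13 higher in muscle (median -1.75). The subunits of troponin, the calcium switch, differed by unequal amounts. Tnni3 was at 11.69, 11.72 and 11.65 in heart and 2.37, 2.42 and 2.28 in muscle. Tnnt2, the cardiac tropomyosin-binding subunit, was at 11.72, 11.74 and 11.81 in heart and 4.65, 4.43 and 4.49 in muscle (7.24 ± 0.14, adjusted p = 2.67e-15), so it kept a signal above the median in muscle. Tnnt3, its fast skeletal counterpart, differed by -9.24 ± 0.17, and Tnnc2, the fast calcium-binding subunit, was at 2.01, 2.15 and 2.11 in heart and 11.21, 11.11 and 11.04 in muscle (-9.03 ± 0.13, adjusted p = 8.44e-17). Tnnc1, which heart shares with slow fibres, differed by 2.75 ± 0.20 because muscle still read 7.93 to 8.16. The slow skeletal members Tnni1 and Tnnt1 were higher in muscle (-5.48 ± 0.17 and -2.91 ± 0.23).

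Tropomyosins, which cover the myosin sites on actin, split differently. Tpm1 was not called, at 10.74 to 10.81 in heart and 10.72 to 10.86 in muscle, with overlapping arrays and a difference of -0.02 ± 0.08 (adjusted p = 0.843). Tpm2 was at 4.65, 4.69 and 4.85 in heart and 10.81, 10.78 and 10.76 in muscle (-6.06 ± 0.11). Tpm4 was higher in heart (1.18 ± 0.10). Skeletal actin Acta1 was at 7.93, 8.83 and 8.51 in heart and 12.14, 12.15 and 12.11 in muscle (-3.71 ± 0.23), and its spread was wider in heart. Cardiac actin Actc1 was at 12.01 to 12.12 in heart and 11.09 or below in muscle (1.01 ± 0.11). These actin transcripts are nearly identical in coding sequence, so signal may be shared between their probe sets and both values are uncertain. Neb, the giant ruler of skeletal thin filaments, differed by -7.20 ± 0.11 and its small cardiac relative Nebl by 5.87 ± 0.13. The nemaline myopathy genes Klhl40 and Klhl41 were higher in muscle (-2.61 ± 0.18 and -2.71 ± 0.13).

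Of 28 Z-disc and M-band genes, 8 were higher in heart and 15 higher in muscle (median -0.43). The calcineurin-binding Z-disc proteins followed the pairs: Myoz1 and Myoz3 of fast fibres differed by -8.85 ± 0.15 and -7.10 ± 0.14, and Myoz2 by 2.12 ± 0.15. Stretch-response genes did as well. Ankrd2 was at 2.48, 2.28 and 2.41 in heart and 10.00, 10.17 and 10.62 in muscle, and Ankrd1 was at 9.77, 9.84 and 9.99 in heart and 2.11, 2.83 and 4.37 in muscle. The muscle arrays for Ankrd1 were spread over more than 2 units, which gave it an SE of 0.41 on a difference of 6.76. Csrp3, another stretch-response protein, chosen after its values were seen, was also highest on muscle array 3, at 6.91, 7.16 and 7.98. Fhl2, a LIM protein that docks on titin, was at 10.51, 10.72 and 10.60 in heart and 2.76, 2.91 and 2.76 in muscle (7.80 ± 0.11, adjusted p = 1.55e-16). Some shared scaffold genes had small differences. Myom2 and Myom1 of the M-band were not called (-0.08 ± 0.10, adjusted p = 0.581, and -0.29 ± 0.11, adjusted p = 0.0548). Myom1 was called higher in muscle under 7 of the 18 alternatives, among them the 3 other scalings and the fit to the 12 heart and muscle arrays (adjusted p = 0.029). With each array centred on its 75th percentile, 5 of the 28 were higher in heart instead of 8.

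Excitation-contraction coupling links the electrical signal to calcium release and uptake. Of 36 measured genes, 12 were higher in heart and 20 higher in muscle (median -0.51). The release channels were nearly exclusive. Ryr2 was at 10.45, 10.39 and 10.38 in heart and 1.79, 1.84 and 1.80 in muscle (8.60 ± 0.07, adjusted p = 4.76e-19), and Ryr1 was at 1.90, 1.98 and 2.07 in heart and 11.10, 11.03 and 10.97 in muscle (-9.05 ± 0.07, adjusted p = 2.05e-19). The surface calcium channels that open or touch them behaved alike in pattern. Cacna1c was at 8.84, 8.79 and 8.88 in heart and 3.21, 3.22 and 3.30 in muscle, and Cacna1s at 3.72, 3.72 and 3.59 in heart and 10.31, 10.33 and 10.34 in muscle. Here the minor form kept a signal above the median in both tissues. Cacng1, the gamma subunit of the skeletal channel, differed by -7.30 ± 0.12, and Sypl2, a triad membrane protein, by -6.39 ± 0.15.

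Calcium uptake and buffering showed the widest gap in the comparison. Pvalb, the soluble calcium buffer of fast fibres, was at 1.77, 2.03 and 1.91 in heart and 11.59, 11.65 and 11.61 in muscle (-9.71 ± 0.10, adjusted p = 5.19e-18). Atp2a1, the fast-fibre calcium pump, was at 2.22, 2.41 and 2.37 in heart and 11.95, 11.96 and 11.94 in muscle (-9.62 ± 0.20). Atp2a2, the cardiac and slow pump, was at 11.50 to 11.64 in heart and 9.10 to 9.32 in muscle (2.37 ± 0.18). Its inhibitor Pln was at 11.62, 11.77 and 11.59 in heart and 4.17, 4.13 and 4.28 in muscle (7.47 ± 0.10, adjusted p = 5.11e-17). Sln, the pump inhibitor of atria and slow muscle, stood at 1.76 to 2.78 in heart and 2.37 to 2.86 in muscle and was not called (adjusted p = 0.311). Without heart array 2 its difference was -0.58 and was called (adjusted p = 0.0376). Casq2 and Casq1, the calcium stores of the reticulum, differed by 3.38 ± 0.14 and -6.26 ± 0.15, and Slc8a1 and Slc8a3, the sodium-calcium exchangers, by 4.23 ± 0.12 and -4.63 ± 0.08. The junctophilins, which hold the surface and reticulum membranes together, divided only partly: Jph1 differed by -3.83 ± 0.08 and Jph2 was not called (-0.18 ± 0.14, adjusted p = 0.361).

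Ion channels and connexins leaned toward heart. Of 33 measured, 22 were called higher in heart and 8 higher in muscle (median 1.51). The channel parts that repolarise the heart made up most of the greatest differences. Kcnd2, a pore of the transient outward current, was at 7.32, 7.06 and 7.23 in heart and 1.93, 1.80 and 2.34 in muscle, and Kcnip2, its accessory subunit, at 7.51, 7.70 and 7.49 and 1.81, 1.93 and 1.78. Kcnk3, a background potassium channel, differed by 5.29 ± 0.11 and Kcnh2, of the rapid delayed rectifier, by 4.55 ± 0.11. Kcnj5 and Kcnj3, which form the acetylcholine-gated channel, differed by 5.07 ± 0.14 and 4.57 ± 0.10. Gja1, a connexin of ventricular gap junctions, was at 9.56, 9.74 and 9.51 in heart and 4.94, 4.89 and 5.13 in muscle (4.62 ± 0.11). Toward muscle, Clcn1, the chloride channel that stabilises the fibre membrane, differed by -4.27 ± 0.14. Kcna1 was not called (0.12 ± 0.11).

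The intercalated disc was the most one-sided of the structural groups: 19 of 22 genes were called higher in heart and 2 higher in muscle, with a median difference of 2.47. Dsp, the desmosomal plakin, was at 10.31, 10.18 and 10.15 in heart and 1.69, 2.05 and 1.75 in muscle (8.38 ± 0.11, adjusted p = 4.91e-17). Cdh2, the N-cadherin of the adherens junction, was at 9.24, 9.21 and 9.19 in heart and 2.15, 2.37 and 2.01 in muscle (7.04 ± 0.08). Lrrc10 differed by 6.65 ± 0.15, the desmosomal genes Pkp2 and Dsg2 by 5.53 ± 0.16 and 4.60 ± 0.14, and Myzap by 5.45 ± 0.11. General junction genes differed less, with Ctnnb1, beta-catenin, at 0.63 ± 0.08 and Vcl, vinculin, at 0.46 ± 0.09. Tmem65 was not called (-0.11 ± 0.12). Desmosomal genes are also expressed by epithelium, whose part in these values was not tested.

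Costamere genes, which tie the fibre's outer filaments to the membrane and matrix, were called in both directions: 8 of 18 were higher in heart and 7 higher in muscle. Their median difference was 0.09 as deposited and turned to -0.24, -0.09 and -0.10 when centred on the 75th percentile, centred on the median or quantile normalized. Dmd, dystrophin, was at 7.11 to 7.23 in heart and 7.05 to 7.20 in muscle and was not called (0.04 ± 0.08, adjusted p = 0.719), but was called higher in muscle when arrays were centred on the 75th percentile (-0.28). Dysf and Cav3 were not called either (-0.09 ± 0.10 and 0.13 ± 0.09). The greatest differences were Ano5, a membrane repair protein mutated in limb-girdle dystrophy, at -6.11 ± 0.11, and Musk, an organiser of the nerve-muscle synapse, at -5.75 ± 0.12. Sntb1, a syntrophin, differed by -1.95 ± 0.13. Lama2, the muscle laminin chain, was higher in heart (1.28 ± 0.11), with Sspn, Itga7 and Utrn at 1.05 ± 0.10, 1.04 ± 0.15 and 0.91 ± 0.08.

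**Figure D2:**
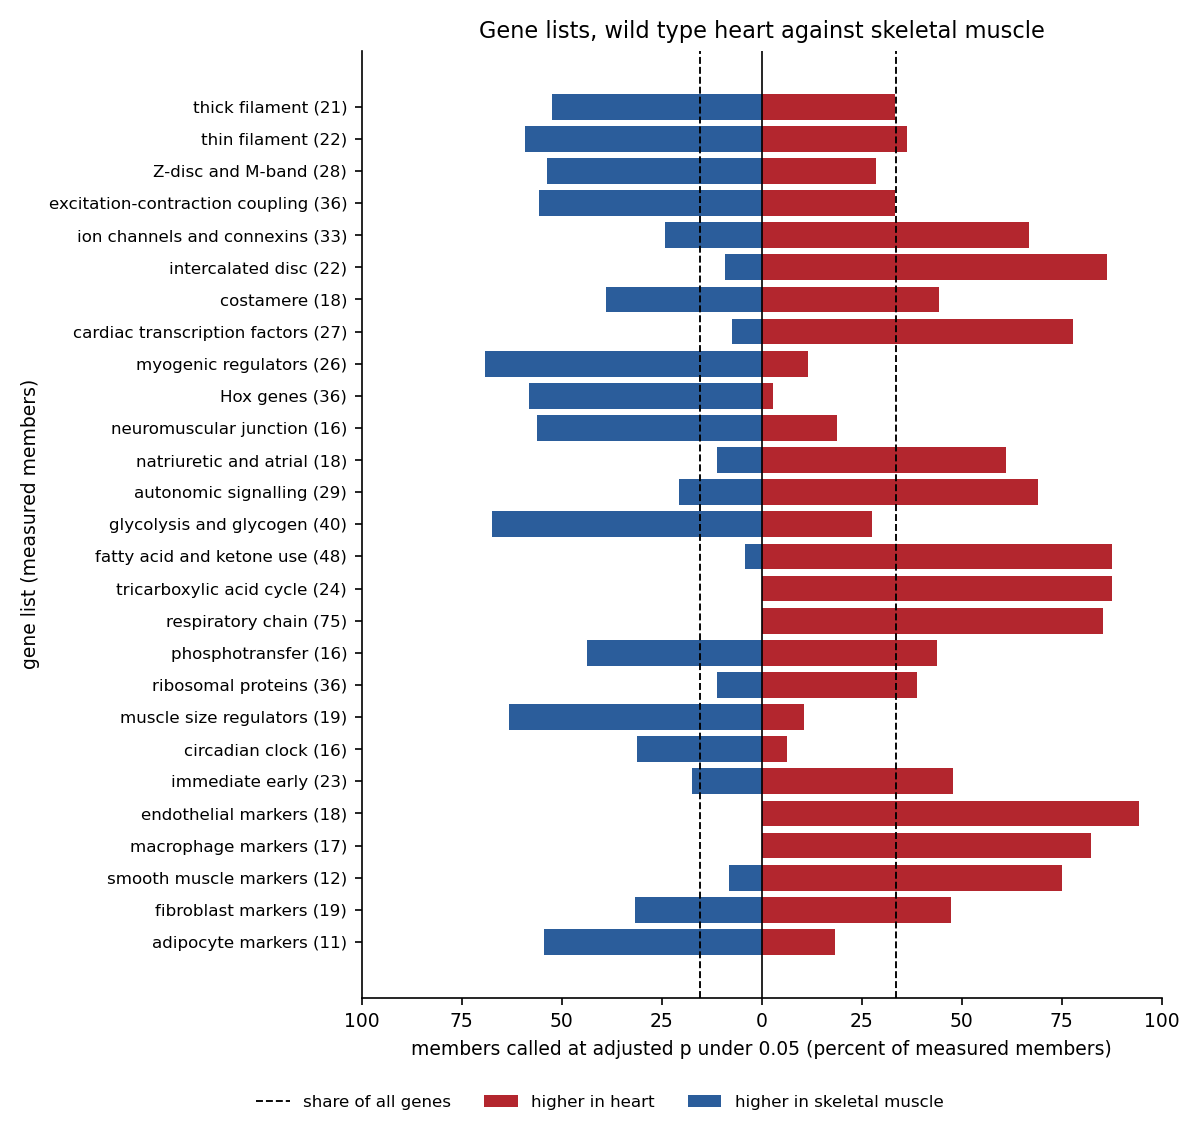
Percent of the measured members of each gene list called higher in wild type heart (red, right) or skeletal muscle (blue, left) at an adjusted p under 0.05; dashed lines give the share of all 18781 genes, 33.5% and 15.5%. The intercalated disc and fatty acid lists extend far to the right (86.4% and 87.5%) and the myogenic and Hox lists far to the left (69.2% and 58.3%).

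Of 27 cardiac transcription factors and cofactors, 21 were called higher in heart and 2 higher in muscle (median 1.65). The 2 became 1 without heart array 1, heart array 3, muscle array 1 or muscle array 3, and 5 when arrays were centred on the 75th percentile. Tbx20, a T-box factor of the chambers, was at 8.51, 8.70 and 8.54 in heart and 2.04, 1.91 and 2.03 in muscle (6.59 ± 0.08, adjusted p = 2.28e-17). Gata4 and Gata6 differed by 6.07 ± 0.12 and 6.37 ± 0.17, and Nkx2-5, the cardiac homeobox factor, was at 7.77, 7.88 and 7.59 against 2.50, 2.56 and 2.23 (5.32 ± 0.17). Myocd, the coactivator of serum response factor, differed by 6.02 ± 0.13, Hopx by 6.07 ± 0.09, Tbx5 by 5.18 ± 0.12, and Irx4, a ventricular factor, by 4.85 ± 0.14. Among those not far apart were Tbx2, at 0.80 ± 0.17, and Irx5, which was not called (0.31 ± 0.21). Nr2f2, an atrial and venous factor, was slightly higher in muscle (-0.58 ± 0.10).

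Of 26 myogenic regulators, 18 were higher in muscle and 3 higher in heart (median -1.48). Myf6, the MyoD-family factor of mature fibres, was at 1.83, 2.52 and 1.95 in heart and 9.40, 9.37 and 9.17 in muscle (-7.21 ± 0.15, adjusted p = 9.42e-15). Tbx15 of fast fibres differed by -6.50 ± 0.11, the transcription cofactors Eya4 and Eya1 by -5.65 ± 0.10 and -5.06 ± 0.11, Lbx1 of limb muscle precursors by -4.36 ± 0.15, and Mstn, the growth inhibitor myostatin, by -6.00 ± 0.17. Prox1 went the other way. It was at 7.59, 7.57 and 7.51 in heart and 3.39, 3.17 and 3.21 in muscle (4.29 ± 0.09, adjusted p = 5.81e-15). Prox1 also marks lymphatic endothelium, whose gene Flt4 was higher in heart by 2.00 ± 0.17. Of the 8 markers of endocardium and lymphatic endothelium, which include Prox1 and Flt4, 6 were higher in heart and 2 higher in muscle. The part of those cells in the Prox1 value was not tested. Factors shared by both muscles differed little: Mef2a by 0.35 ± 0.08 and Mef2d by -0.71 ± 0.08, Mef2a was not called when arrays were centred on the median or the 75th percentile, and Smyd1 was not called (0.06 ± 0.09) except when arrays were centred on the 75th percentile (-0.27).

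Hox genes record where along the body a tissue arose. Of 36 measured, 21 were called higher in muscle and 1 higher in heart, and all but 1 of the 36 had a lower mean under the array median. By cluster, 8 of 10 Hoxa, 7 of 9 Hoxc and 5 of 8 Hoxd genes were higher in muscle, against 1 of 9 Hoxb genes. Hoxc10 was at 2.30, 2.01 and 2.17 in heart and 7.05, 6.98 and 7.01 in muscle (-4.85 ± 0.12, adjusted p = 7.92e-14). Hoxc8, Hoxa9 and Hoxd8 followed at -3.70 ± 0.11, -3.27 ± 0.18 and -3.12 ± 0.17. In heart the arrays for Hoxc10, Hoxc8, Hoxa9 and Hoxd8 lay between 1.22 and 2.64. Hoxb4 was the only one called higher in heart (0.49 ± 0.18, adjusted p = 0.0455), and its groups overlapped, the lowest heart array at 2.42 and the highest muscle array at 2.49. It was not called under any of the 3 other scalings, nor without heart array 1 or 2 or muscle array 2 or 3, where the difference was 0.28 to 0.55. Hoxa4 was the one with both tissues above the median, at 3.47 to 3.90 in heart and 4.02 to 4.28 in muscle (-0.42 ± 0.11), and was not called on the 6 wild type arrays alone (adjusted p = 0.0604).

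Genes of the nerve-muscle synapse were mostly a property of muscle, with 9 of 16 higher in muscle and 3 higher in heart (median -0.73). Musk was at 1.49, 2.00 and 1.84 in heart and 7.61, 7.48 and 7.49 in muscle. The adult acetylcholine receptor subunits Chrne and Chrna1 differed by -4.15 ± 0.16 and -3.88 ± 0.14, and Ache, the enzyme that ends the signal, by -2.86 ± 0.13. Agrn, the matrix organiser that nerves release and other tissues also make, was higher in heart (2.00 ± 0.11). Lrp4, its receptor, was not called (0.08 ± 0.11).

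The natriuretic peptides and atrial genes gave 11 of 18 higher in heart and 2 higher in muscle (median 0.84). Nppa, the atrial peptide hormone, was at 9.47, 9.88 and 9.75 in heart and 1.84, 1.61 and 2.13 in muscle (7.84 ± 0.15, adjusted p = 3.04e-15). Nppb was at 8.33, 8.18 and 7.87 in heart and 1.56, 1.48 and 1.87 in muscle (6.48 ± 0.17), and Corin, the protease that activates Nppa's product, differed by 7.32 ± 0.11. Npr3, the clearance receptor, differed by 0.84 ± 0.17, and the receptor Npr2 was not called (0.01 ± 0.07) but was called higher in muscle when arrays were centred on the 75th percentile (-0.31). The atrial markers varied between the heart arrays. Myl7, the atrial light chain, was at 4.52 on heart array 1 against 6.83 and 6.69 on the others, with muscle at 1.5 to 1.88 (4.29 ± 0.61, adjusted p = 3.59e-05). Myl4 was at 6.63 on heart array 1 and 8.60 and 8.45 on the others, while muscle was at 6.80 to 6.85, so the groups overlapped and the gene was not called (1.07 ± 0.60, adjusted p = 0.185). Without heart array 1 its difference was 1.70 and was called (adjusted p = 0.035). Mybphl followed the same order at 2.23, 3.24 and 3.05. Bmp10, another atrial gene, stood at 2.03 or below on all 6 arrays.

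**Figure D3:**
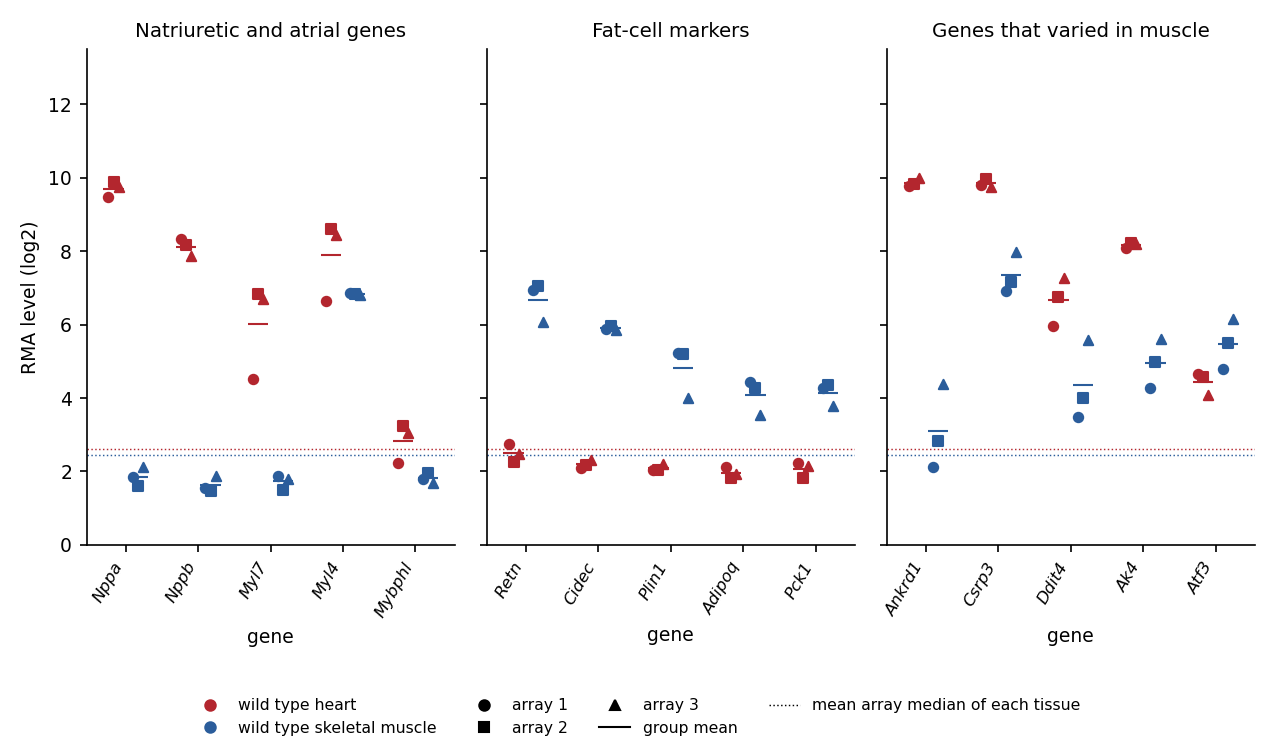
RMA level (log2) on each wild type heart (red) and skeletal muscle array (blue) for natriuretic and atrial genes (left), fat-cell markers (middle) and genes that varied among muscle arrays (right); bars are group means and dotted lines the mean array median of each tissue. Heart array 1 lies low for Myl7 (4.52) and Myl4 (6.63), and muscle array 3 lies low for Plin1 (3.99) and high for Ankrd1 (4.37).

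Signalling from the autonomic nerves was higher in heart for 20 of 29 genes and higher in muscle for 6 (median 0.60). Chrm2, the muscarinic receptor that slows the heart, was at 9.04, 8.77 and 8.97 in heart and 2.36, 2.22 and 2.30 in muscle (6.64 ± 0.17, adjusted p = 7.78e-14). The cardiac adenylyl cyclases Adcy5 and Adcy6, which make cyclic AMP, differed by 3.71 ± 0.14 and 2.84 ± 0.09, and the phosphodiesterases Pde1c and Pde3a, which break it down, by 3.70 ± 0.11 and 3.49 ± 0.10. Adra1b and Agtr1a, the adrenergic and angiotensin receptors, differed by 3.30 ± 0.09 and 2.72 ± 0.12. Of the 6 higher in muscle, Adcy2 differed most, at 2.31, 2.18 and 2.45 in heart and 7.31, 7.37 and 6.97 in muscle (-4.90 ± 0.12).

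The fuel genes separated along the known division between fast fibres, which burn glycogen, and heart. Of 40 genes of glycolysis and glycogen, 27 were higher in muscle and 11 higher in heart (median -0.82). Slc16a3, the lactate exporter, was at 3.17, 2.94 and 3.26 in heart and 9.28, 9.31 and 9.14 in muscle (-6.12 ± 0.14, adjusted p = 1.65e-14). Pfkfb3, which makes the activator of phosphofructokinase, was at 3.35, 3.27 and 3.43 in heart and 8.62, 9.11 and 9.25 in muscle (-5.64 ± 0.16). The phosphorylase kinase subunit Phkg1 and the glycerol phosphate shuttle enzyme Gpd2 differed by -4.20 ± 0.11 and -3.71 ± 0.11. The 11 genes higher in heart included the alternative forms of the same enzymes: Pygb, brain-type glycogen phosphorylase, was at 10.36, 10.27 and 10.27 in heart and 4.89, 4.99 and 4.35 in muscle (5.56 ± 0.13), and Hk1 and Pfkl differed by 3.47 ± 0.09 and 3.25 ± 0.10. Lactate handling was split between isoforms, with Ldhb at 2.44 ± 0.10, Ldha at -0.88 ± 0.07, and the importer Slc16a1 at 2.20 ± 0.08. The heart still held the muscle enzymes Pygm and Ldha at 10.70 to 10.77 and 11.04 to 11.12. Gapdh, often used as a reference gene, was not called, at 12.41 to 12.42 in heart and 12.37 to 12.50 in muscle (-0.02 ± 0.06, adjusted p = 0.781), but was called higher in muscle when centred on the median (-0.20) or the 75th percentile (-0.35), and Hk2 was not called (0.24 ± 0.12).

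Fatty acid and ketone genes moved together the other way: 42 of 48 were higher in heart and 2 higher in muscle, with a median difference of 1.24. Dgat2, which stores fatty acids as triglyceride, was at 9.33, 9.37 and 9.32 in heart and 7.13, 6.86 and 6.77 in muscle (2.42 ± 0.10, adjusted p = 3.15e-11). Ech1 of beta-oxidation differed by 2.03 ± 0.07, and Cpt1a, 1 form of the enzyme that gates mitochondrial import, by 1.92 ± 0.17. The nuclear receptors Esrrb and Ppara, which drive fatty acid genes, differed by 2.25 ± 0.11 and 1.80 ± 0.16. The lipid droplet protein Plin5 differed by 2.36 ± 0.22, with muscle arrays at 4.50, 4.52 and 5.48. The ketone enzymes Bdh1 and Oxct1 differed by 1.95 ± 0.20 and 1.78 ± 0.08. Plin4 and Pnpla2 were not called (0.19 ± 0.23 and 0.29 ± 0.14), nor was Acacb (0.06 ± 0.11). Capillary endothelium expresses some of the uptake genes of this list, and endothelial markers were also higher in heart, as given below; their part in the result was not tested.

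Mitochondrial energy genes were higher in heart by smaller amounts. Of 24 genes of pyruvate dehydrogenase and the tricarboxylic acid cycle, 21 were higher in heart and 0 higher in muscle (median 0.49). Idh2 was at 11.09, 11.14 and 11.07 in heart and 9.05, 8.82 and 9.17 in muscle (2.08 ± 0.12), Mdh1 differed by 1.34 ± 0.06 and Suclg2 by 1.21 ± 0.12, while Idh3a was not called (-0.04 ± 0.07). Of 75 respiratory chain genes, 64 were higher in heart and 0 higher in muscle (median 0.57). The counts were 27 of 35 in complex I, 8 of 8 in complex III, 13 of 13 in complex IV and 13 of 15 in the ATP synthase, with medians of 0.57, 0.72, 0.80 and 0.41. Slc25a5, an adenine nucleotide carrier, had the greatest difference of the list (1.91 ± 0.07), followed by Cox4i2 at 5.45 to 5.46 in heart and 3.49 to 3.83 in muscle (1.81 ± 0.10) and Ndufb10 (1.66 ± 0.10). Ndufs4 was not called (-0.05 ± 0.10). These counts depended on the scaling. Centred on the 75th percentile, 10 cycle genes were higher in heart and 3 in muscle, and 42 respiratory genes were higher in heart and 7 in muscle. Over all 35382 probe sets, that scaling gave 5054 higher in heart and 13557 higher in muscle. Both lists therefore still had more genes higher in heart than in muscle, unlike all probe sets.

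**Figure D4:**
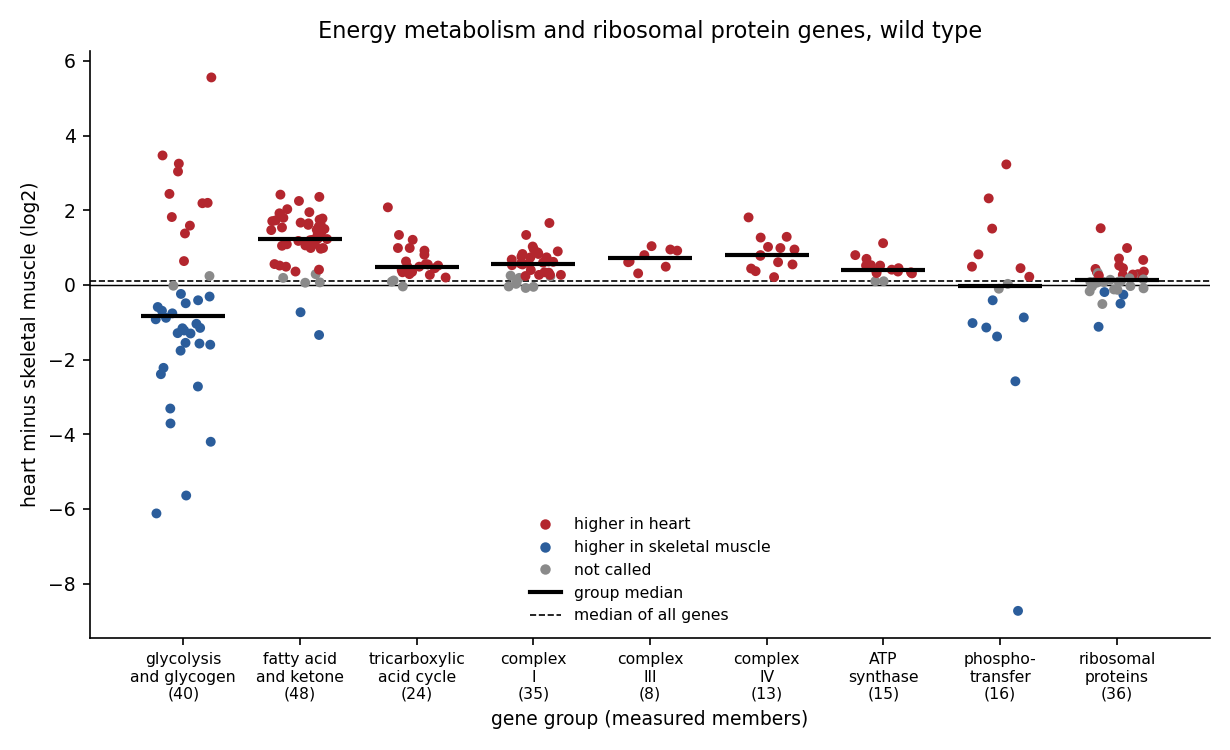
Difference between wild type heart and skeletal muscle (log2) for each measured gene of the energy metabolism groups and of the ribosomal proteins; red and blue points were called higher in heart and in muscle, grey points were not called, thick bars are group medians and the dashed line is the median of all genes (0.10). The fatty acid group lies highest, with a median of 1.24, and glycolysis and glycogen lowest, with a median of -0.82 and members on both sides.

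Of 16 phosphate transfer genes, 7 were higher in heart and 7 higher in muscle, and 4 and 9 when centred on the 75th percentile. Ampd1, the AMP deaminase of fast fibres, was at 1.96, 1.63 and 1.96 in heart and 10.60, 10.57 and 10.56 in muscle (-8.73 ± 0.12, adjusted p = 6.07e-17), and its erythrocyte form Ampd3 differed by 1.51 ± 0.15. Adssl1, the next enzyme of the purine nucleotide cycle, differed by -2.58 ± 0.10. Ckb, the brain creatine kinase, and the mitochondrial adenylate kinase Ak4 were higher in heart (2.32 ± 0.11 and 3.23 ± 0.23), with Ak4 at 4.26, 4.97 and 5.61 on the muscle arrays. Cytosolic ribosomal proteins, expected everywhere, gave 14 of 36 higher in heart and 4 higher in muscle (median 0.14), close to the shares over all genes. Centred on the 75th percentile they gave 4 and 17, where all 35382 probe sets gave 5054 and 13557. Their exception was a pair of copies: Rpl3 was at 8.72, 8.66 and 8.62 in heart and 7.17, 7.04 and 7.22 in muscle (1.52 ± 0.10), and the striated muscle copy Rpl3l at 7.63, 7.68 and 7.64 in heart and 8.76, 8.85 and 8.72 in muscle (-1.12 ± 0.08).

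Regulators of muscle size were higher in muscle for 12 of 19 genes and higher in heart for 2 (median -0.70). Ddit4l, an inhibitor of mTOR signalling, was at 3.66, 3.46 and 2.69 in heart and 10.07, 9.99 and 9.54 in muscle (-6.60 ± 0.26, adjusted p = 1.49e-11). Igfbp5 and Igf1, of the growth factor axis, differed by -2.68 ± 0.13 and -1.29 ± 0.09, and Fbxo32, the ubiquitin ligase atrogin-1, by -1.33 ± 0.16. Ddit4, another mTOR inhibitor, was higher in heart but varied within both groups, at 5.97, 6.76 and 7.27 in heart and 3.47, 3.99 and 5.58 in muscle (2.32 ± 0.52, adjusted p = 0.00207). Foxo3 differed by 1.34 ± 0.15.

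Of 16 clock genes, 5 were called higher in muscle and 1 higher in heart, which was Npas2 (0.96 ± 0.17). Rora, Bhlhe41, Bhlhe40, Nfil3 and Tef were the 5 higher in muscle, with differences of -1.57 ± 0.11, -1.54 ± 0.22, -1.5 ± 0.13, -1.37 ± 0.22 and -1.06 ± 0.13. The core genes Arntl, Per1, Cry2 and Clock were not called, with differences of -0.09 ± 0.17, 0.00 ± 0.21, -0.07 ± 0.11 and 0.11 ± 0.09. Per1 varied within both groups, between 4.36 and 5.21 in heart and between 4.43 and 5.30 in muscle. Centred on the 75th percentile or quantile normalized, 9 clock genes were higher in muscle. Immediate early genes, which respond within minutes to handling, gave 11 of 23 higher in heart and 4 higher in muscle. Centred on the 75th percentile, these became 4 and 7, where all 35382 probe sets gave 5054 and 13557. Nr4a1 was at 4.26, 4.90 and 4.27 in heart and 7.92, 8.43 and 8.41 in muscle (-3.78 ± 0.21, adjusted p = 9.90e-10). Atf3 was at 4.78, 5.49 and 6.16 on the muscle arrays and 4.07 to 4.66 in heart (-1.04 ± 0.25), and was not called on the 6 wild type arrays alone (adjusted p = 0.0616). Fos was at 1.76 to 2.13 in heart, under the array medians, and at 2.65 to 3.25 in muscle, a little above them. It was called higher in muscle (-0.94 ± 0.19), but not when tested against 1.5-fold.

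Markers of other cell types moved with the tissues, and in bulk RNA more cells of a type cannot be told apart from more RNA per cell. Of 18 endothelial markers, 17 were higher in heart and 0 higher in muscle (median 1.07). Their mean level over the list was 7.18 to 7.22 on the heart arrays and 6.05 to 6.21 on the muscle arrays, and Kdr, the receptor of vascular growth factor, differed by 1.95 ± 0.24 and Eng by 1.68 ± 0.13. Of 17 macrophage and leukocyte markers, 14 were higher in heart (median 1.35), with list means of 4.84 to 5.13 and 3.60 to 4.08. C1qb was at 6.99, 7.46 and 7.65 in heart and 5.85, 4.91 and 5.18 in muscle (2.05 ± 0.21). Smooth muscle markers gave 9 of 12 higher in heart as deposited but 3 in each direction when centred on the 75th percentile, and Myh11 of the contractile apparatus was not called (-0.27 ± 0.23). Of 10 epicardial and mesothelial markers 7 were higher in heart as deposited and 4 when centred on the 75th percentile. At that scaling 5054 of all 35382 probe sets were higher in heart and 13557 higher in muscle. Wt1 was at 3.71 to 4.32 in heart against 1.60 to 2.14 in muscle (2.15 ± 0.16).

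Fibroblast markers were mixed, 9 of 19 higher in heart and 6 higher in muscle. Fbln1 was at 7.51, 7.61 and 7.62 in heart and 4.25, 3.54 and 3.85 in muscle (3.70 ± 0.17), and Tcf21, the factor of cardiac fibroblasts, differed by 1.98 ± 0.12. The collagen genes Col3a1 and Col6a3 were higher in muscle (-1.04 ± 0.16 and -0.99 ± 0.15), and Pdgfra was not called (0.00 ± 0.13). Satellite cell markers were mixed, with 5 of 9 higher in muscle and 4 higher in heart. Those higher in muscle included Cdh15 (-3.28 ± 0.16) and the stem cell factor Pax7, at 2.03 to 2.21 in heart and 3.72 to 4.12 in muscle (-1.77 ± 0.10). Those higher in heart included Itga7, given above with the costamere. With dim probe sets left out, 4 of the 9 markers were tested and 0 were higher in muscle. The tendon marker Thbs4 was higher in muscle (-2.02 ± 0.20), and 8 of 11 tendon markers were not called. Nerve and Schwann cell markers gave 1 of 8, Snap25, at 2.24 or below on all 6 arrays (0.32 ± 0.09). Centred on the 75th percentile, 0 of the 8 were higher in heart and 3 higher in muscle, where all 35382 probe sets gave 5054 and 13557.

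Fat-cell markers were higher in muscle for 6 of 11 genes and higher in heart for 2 (median -0.85). Retn, the hormone resistin, was at 2.75, 2.27 and 2.48 in heart and 6.94, 7.04 and 6.06 in muscle (-4.18 ± 0.20), and Cidec, of the large lipid droplet, differed by -3.70 ± 0.18. Plin1 and Adipoq were lower on muscle array 3 than on the others, at 5.24, 5.21 and 3.99 and at 4.45, 4.27 and 3.55. Pck1, which makes glycerol for fat storage, was at 4.26, 4.35 and 3.78 on the same arrays. The heart arrays had Plin1 and Adipoq at 2.21 or below. Cidea, a lipid droplet gene best known from brown fat, was on the contrary at 5.65, 5.78 and 5.79 in heart and 1.77, 1.91 and 1.58 in muscle (3.98 ± 0.11, adjusted p = 1.43e-13), while the brown-fat uncoupler Ucp1, looked up after the Cidea values were seen, stood at 1.86 or below on all 6 arrays. What part the fat cells had in the muscle values of other genes was not tested.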

How the data were processed

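RNA of each tissue was hybridised to Affymetrix Mouse Gene ST arrays, 3 arrays in each of 6 groups. The values the authors deposited are log2 expression from RMA, which the submitters' notes on processing list beside R 2.10.0. Whether all 18 arrays were normalized together is not given in the sources used here. Of 35382 probe sets, 21153 carried 1 gene symbol (18781 symbols), 1867 several and 12362 none, and 21123 were matched to RefSeq by Entrez ID. Each gene is shown by its probe set with the highest mean over the 6 wild type arrays.

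limma 3.58.1 in R 4.3.3 fitted 1 model with 6 group means to all 18 arrays, so all groups share 1 estimate of spread. The wild type heart minus wild type skeletal muscle contrast was adjusted by Benjamini-Hochberg over all probe sets, and a probe set was called at an adjusted p under 0.05. Every adjusted p in the text comes from this limma fit or the named alternative. On simulated data of 35382 probe sets, 16, 37, 45 and 48 of 50 changes of 0.5, 1, 1.5 and 2 (log2) were called, with 7 false calls. All other simulated probe sets had no wild type tissue difference, and their noise was normal and independent. The real data had 13697 calls, so the simulated counts do not give the power or the false calls of the real comparison. The number of arrays limits the precision. Figures were drawn with matplotlib 3.10.9.

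Of 835 members of 34 gene lists, 758 were measured. A list of muscle microRNA genes was added after the values were seen. The members and lists were chosen with earlier results of these data known. Genes named were drawn from the 15 with the largest called difference in each direction, the genes of the pairs and the gene lists. From each list, up to 8 called and 4 least different members could be named. In the filament, natriuretic, sex-linked and clock lists any member could be. The text names a selection of these and not every one. Alternatives covered scaling, dim probe sets, the samples and prior of the fit, a 1.5-fold threshold, single arrays left out and the replicate number as a block. Sequences are from RefSeq (GRCm38.p6).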

Additional observations from a re-analysis of the deposited data

Results flagged for a closer look

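These genes named above had a heart minus muscle difference that itself differed between transgenic and wild type mice, by the interaction contrast of the limma fit (903 of 35382 probe sets, 2.55%). Each value is the transgenic difference minus the wild type difference (log2), with n = 3 arrays in each of the 4 groups. The 903 became 401 when only the 12 heart and muscle arrays were fitted and 370 at an adjusted p under 0.01. Of the 26 genes given here, 14 were called in the fit to 12 arrays. The other 12 were not: Cacna1c, Ckb, Fbxo32, Gja1, Kcnip2, Mybphl, Myh7, Myh7b, Npr2, Pde3a, Plin5 and Smyd1, with adjusted p of 0.0515 to 0.153 there and 0.00713 to 0.0433 in the fit to 18 arrays.

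The muscle genes below lay closer to heart in transgenic mice. Ddit4l, the inhibitor of mTOR signalling, had a value of 3.75 ± 0.37, since its difference was -6.60 in wild type and -2.85 in transgenic mice. Adcy2 had 2.24 ± 0.17 (-4.90 and -2.66), Pfkfb3 had 1.85 ± 0.23, Mstn 1.55 ± 0.25, Ano5 1.35 ± 0.16, Musk 1.11 ± 0.18, Igfbp5 1.08 ± 0.18, Fbxo32 1.02 ± 0.23, Igf1 0.81 ± 0.12 and Pax7 0.79 ± 0.14.

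Of the genes higher in heart, the difference was smaller in transgenic mice for Fhl2, at -2.09 ± 0.16 (7.80 and 5.71), and for Ak4, at -2.06 ± 0.33 (3.23 and 1.17). It was also smaller for Myh7b (-1.07 ± 0.26), Hk1 (-0.82 ± 0.13), Gja1 (-0.79 ± 0.16), Ckb (-0.77 ± 0.15), Kcnip2 (-0.63 ± 0.13), Pde3a (-0.59 ± 0.14) and Cacna1c (-0.48 ± 0.10). It was larger for Plin5 (1.5 ± 0.31), Nppa (1.32 ± 0.21), Mybphl (1.30 ± 0.32) and Adra1b (0.76 ± 0.13). Myh7, higher in muscle, had a value of -1.08 ± 0.26, with a wider gap in transgenic mice (-1.96 and -3.04). Smyd1 and Npr2, not called in wild type, had values of 0.62 ± 0.13 and 0.56 ± 0.10.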

How the results depend on the processing

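Counts of the tissue calls moved with scaling and with the fold threshold. Centred on the 75th percentile, 5054 probe sets were higher in heart and 13557 in muscle (at 2-fold, 1597 and 2239), and in transgenic mice 5029 and 13700. Centred on the median, 8259 were higher in muscle, and 8217 in transgenic mice. After quantile normalization 1833 were at least 2-fold higher in muscle. Tested against 1.5-fold, 2756 and 1134 were called in wild type and 2751 and 1096 in transgenic mice. The 903 probe sets whose tissue difference varied with genotype became 401 with only the 12 heart and muscle arrays, 1357 with dim probe sets left out, 47 against 1.5-fold and 370 at an adjusted p under 0.01. The 3 other scalings left that count at 819 to 894. Leaving out 1 array gave 12282 to 12704 calls in all. Centred on the 75th percentile, the differences of Dmd, Npr2, Smyd1 and Snap25 turned to -0.28, -0.31, -0.27 and 0.0. The cause was not tested, beyond the shift that the centring itself makes.

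Same-numbered heart and muscle arrays had correlations of -0.033, -0.013 and 0.011 between their deviations from the group means. Arrays with different numbers had correlations of -0.016 to 0.03. These values, taken over all probe sets, showed no pairing by number but cannot say whether a heart and a muscle array share an animal. With the replicate number as a fixed block on the 6 arrays there were 10297 calls, 9812 of them shared with the 13697, and as a random block 13674. Of the genes named, the fixed block lost the calls of 9: Actn2, Atf3, Hoxa4, Hoxb4, Mef2a, Npr3, Snap25, Uty and Xist.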
